A study of Mus musculus with 3 samples.

Results

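The genes described are 10 genes of MHC class I antigen presentation, chosen by symbol as 10 of the 31058 rows of the gene tables. No cut on their values was used, but earlier results of these data were known when they were chosen. They are the heavy chain genes H2-D1, H2-K1, H2-Q6, H2-Q7 and H2-T23, the light chain gene B2m, the peptide supply genes Psmb8, Tap1 and Tapbp, and the regulator Nlrc5. Cells from glomeruli, the filters of the kidney, came from a male, a female and a second female, here female ERaKO, all healthy and of strain C57Bl/6. The genotype common to them was Pax2.rtTA;TetO.Cre;R26.Confetti, a doxycycline-inducible Cre and a colour reporter, and the second female also had ERalphaKO, a knockout of oestrogen receptor alpha labelled RPC in the sample's title. Doxycycline was given at an age of 20 days and tracing ended at 90 days. Each mouse gave 1 droplet library of 3′ tags with unique molecular identifiers (UMIs).

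MHC class I molecules show short peptides from inside a cell to T cells and to natural killer (NK) cells. A heavy chain pairs with beta-2 microglobulin (B2m) and is loaded in the endoplasmic reticulum with peptides that the proteasome makes and a transporter pumps in. H2-K1 and H2-D1 encode the classical heavy chains, H2-Q6 and H2-Q7 the non-classical Qa-2 antigens, and H2-T23 the Qa-1 antigen, which is read by receptors of NK cells. Psmb8 encodes an interferon-induced subunit of the immunoproteasome, Tap1 one chain of the peptide transporter, and Tapbp tapasin, which holds empty class I molecules at the transporter. Nlrc5 encodes a transactivator of class I genes. Podocytes cover the outside of glomerular capillaries, whose inside is lined by endothelial cells.

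All genes but B2m (chromosome 2) and Nlrc5 (chromosome 8) lie on chromosome 17 of GRCm38, in the MHC region, and each identifier matched the GENCODE annotation. H2-Q6 (ENSMUSG00000073409, 35424850 to 35430055) and H2-Q7 (ENSMUSG00000060550, 35439155 to 35443773) are neighbours on the plus strand. Tap1 (ENSMUSG00000037321, 34187553 to 34197225) and Psmb8 (ENSMUSG00000024338, 34197721 to 34201454) are also adjacent. RefSeq promoter windows, from 250 bases before to 50 after a start site, were matched for 9 of the 10 genes. Stretches of 150 bases are shown for 4 of them, because H2-Q7 and H2-Q6 were highest and B2m low in podocytes, with H2-K1 between them. Capitals mark GGGNNTTCC (kappaB type), AANNGAAA (interferon-stimulated type), TGACGC (X2 type) and ATTGG (Y box), searched on both strands.
H2-Q7: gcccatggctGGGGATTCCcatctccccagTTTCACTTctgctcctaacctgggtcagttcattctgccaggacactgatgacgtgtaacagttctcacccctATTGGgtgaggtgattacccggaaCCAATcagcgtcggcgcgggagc
H2-Q6: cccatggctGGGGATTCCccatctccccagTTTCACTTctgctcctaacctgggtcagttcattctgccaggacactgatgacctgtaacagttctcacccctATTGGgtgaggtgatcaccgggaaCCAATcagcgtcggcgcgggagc
H2-K1: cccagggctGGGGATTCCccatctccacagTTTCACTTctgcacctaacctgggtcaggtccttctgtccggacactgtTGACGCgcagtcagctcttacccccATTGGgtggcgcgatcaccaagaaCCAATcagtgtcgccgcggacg
B2m: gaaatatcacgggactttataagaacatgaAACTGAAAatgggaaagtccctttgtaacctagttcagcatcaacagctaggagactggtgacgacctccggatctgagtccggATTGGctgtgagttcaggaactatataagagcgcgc
The stretches lie at chr17:35439012-35439161 (plus strand) for H2-Q7, chr17:35424668-35424817 (plus) for H2-Q6, chr17:34000318-34000467 (minus) for H2-K1 and chr2:122147520-122147669 (plus) for B2m, in GRCm38.p6. The longest run shared by the H2-Q6 and H2-Q7 stretches was 66 bases, and H2-K1 shared a run of 21 bases with H2-Q6 and of 15 with H2-Q7. GGGNNTTCC was found in the windows of H2-D1, H2-K1, H2-Q6 and H2-Q7, against 5.82% of all 32851 promoters of the same length. Only these exact letters were searched, so a related spelling such as gggaaagtccc in the B2m stretch was not counted. AANNGAAA was found in those 4 and in H2-T23 and B2m (23.9% of all promoters), and a double repeat of GAAA, which overlaps it, only in H2-T23 and B2m of the 9 windows (3.44%). TGACGC was found in H2-D1 and H2-K1 (7.40%), and ATTGG in 8 of 9 windows, all but that of Psmb8 (37.4%). As spelled here, the windows of H2-Q6 and H2-Q7 held the same 3 of these motifs. At the place of TGACGC in the H2-K1 stretch, H2-Q7 reads tgacgt and H2-Q6 tgacct, which were not searched.

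Sequence likeness also bears on the counts, since 3′ tags are read near the transcript end. The last 400 bases of each protein-coding transcript were cut into 50-base windows and looked up in all annotated transcripts. In all 4 transcripts of H2-Q7, 99.4% of windows occurred in no other annotated gene. In the 2 transcripts of H2-Q6 the shares were 59.8% and 36.2%, and 63.8% of the windows of the shorter one were shared with other H2 genes, H2-Q7 among them. H2-T23 had 63.8% unique windows, H2-D1 87.7 to 93.4% and H2-K1 80.1 to 99.4%. How the counting treated reads from shared stretches is not given in the sources used here. The split of counts between H2-Q6 and its relatives is therefore uncertain, more so among annotated genes than the H2-Q7 count. The H2-Q rows of the gene tables were H2-Q1, H2-Q2, H2-Q4, H2-Q6, H2-Q7 and H2-Q10 only. A relative without annotation could not be found by this search, and whether H2-Q7 counts hold reads of such a gene was not tested.

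The kept cells numbered 3221, 2847 and 2471 in the male, female and female ERaKO libraries, with median depths of 7325, 8857 and 8039 UMIs. Any 2 libraries had 4 to 8 cell barcodes in common. Cells were clustered without the 10 genes, any other H2 gene or the interferon and antigen presentation lists, and 10 classes with at least 20 cells in every library were used. A class is named for its markers and stands for podocyte-like cells, endothelial-like cells and so on. In the order male, female and female ERaKO there were 1313, 1527 and 897 podocytes, 772, 688 and 479 endothelial cells, 90, 70 and 52 mononuclear phagocytes, and 41, 41 and 23 T and NK cells. The 10 podocyte markers summed to 23928 to 26604 counts per 1000000 UMIs (CPM) in podocytes and the 10 endothelial markers to 12753 to 13488 CPM in endothelial cells, levels that the naming by these markers fixes. Of the 4 endothelial clusters, 3 (clusters 3, 10 and 16) had no marker of the list among their top 10 genes. The T and NK cells came from cluster 15, whose top 10 genes were led by Igkc and Igha. That top 10 held Mki67, a gene of cycling cells, and 3 markers of the T and NK list. Of the 132 cells of cluster 15, 27 with too few of these markers were left out.

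H2-Q7 and H2-Q6 were the most abundant of the 10 genes in podocytes, and podocytes had more of both than any other class. H2-Q7 stood at 3922 CPM in male, 4864 in female and 3451 in female ERaKO podocytes (mean 4079 ± 719, SD, n = 3 libraries). The next class, T and NK cells, had 887 ± 121 CPM, followed by mononuclear phagocytes with 205 ± 86.1 and endothelial cells with 162 ± 95.9. H2-Q6 stood at 1995, 2557 and 2169.7 CPM in podocytes (2241 ± 288), against 237 ± 117 in T and NK cells and 65.7 ± 43.9 in endothelial cells. For both genes the podocyte values lay above every value of every other class, and the T and NK values above the rest for H2-Q7. In the lowest classes, proximal tubule for H2-Q7 and principal cells for H2-Q6, the means were 24.9 ± 8.26 and 10.3 ± 1.04 CPM. A UMI of H2-Q7 was found in 99.2%, 99.4% and 98.2% of podocytes and in 56.9%, 77.9% and 40.9% of endothelial cells. With every cell thinned to 3000 UMIs the shares were 98.2%, 98.9% and 97.0% against 34.2%, 43.9% and 16.9%. In proximal tubule cells, which had the lowest H2-Q7 level, the thinned shares were 9.80%, 6.98% and 3.95%.

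**Figure D1:**
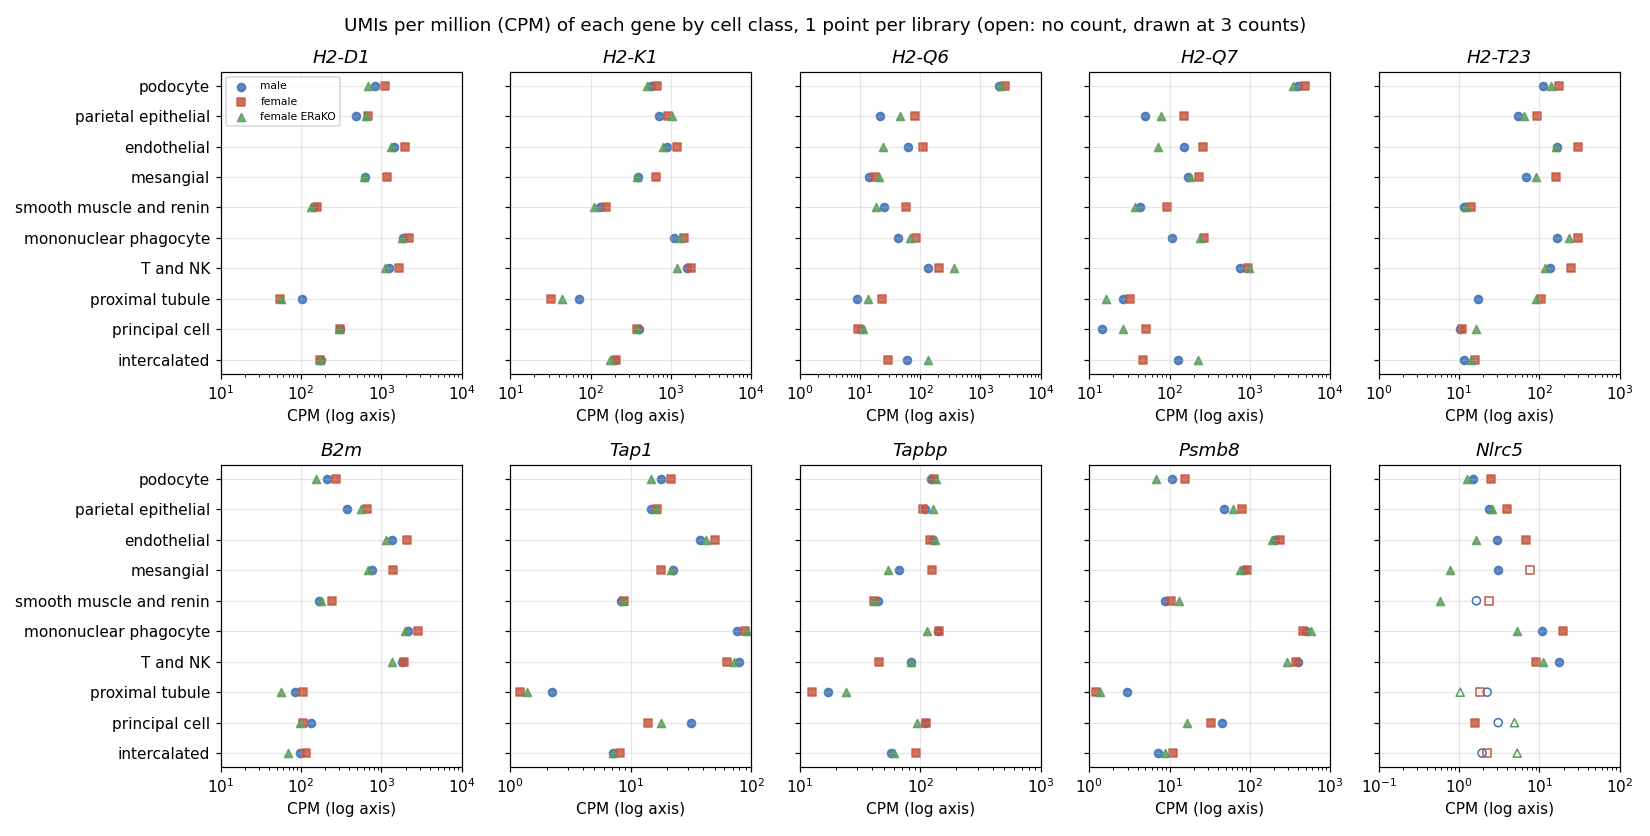
Each panel shows 1 gene, with its level in counts per 1000000 UMIs (CPM, log axis) on the horizontal axis and the cell classes on the vertical axis. Each point is 1 library, and open points had no count and are drawn at the limit of 3 counts. H2-Q6 and H2-Q7 are highest in podocytes, whereas B2m, Psmb8 and Tap1 are highest in mononuclear phagocytes.

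The classical heavy chains H2-D1 and H2-K1 showed another order, with podocytes in the middle. H2-D1 stood at 831, 1113 and 679.7 CPM in male, female and female ERaKO podocytes (874 ± 220). Mononuclear phagocytes had 1981 ± 220 CPM, endothelial cells 1569 ± 327 and T and NK cells 1336 ± 287, and each of these classes overlapped the next, podocytes included. H2-K1 stood at 567, 678 and 497 CPM in podocytes (581 ± 91.0), below the 1514 ± 292 of T and NK cells, the 1293 ± 179 of mononuclear phagocytes, the 963 ± 212 of endothelial cells and the 877 ± 162 of parietal epithelial cells. Proximal tubule cells were lowest for both genes, with 71.0 ± 27.1 and 49.2 ± 19.7 CPM. H2-T23 stood at 111, 177 and 138 CPM in podocytes (142 ± 33.4), and each of the 5 highest classes, from phagocytes at 235 ± 69.2 to mesangial cells at 106 ± 47.2, overlapped its neighbour.

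B2m, the partner of every heavy chain, was low in podocytes. It stood at 208, 269.8 and 152 CPM there (210 ± 59.1), against 1367, 2092 and 1153 CPM in endothelial cells (1537 ± 492), 2321 ± 481 in mononuclear phagocytes and 1691 ± 313 in T and NK cells. Podocytes ranked below mesangial cells (943.5 ± 391) and parietal epithelial cells (535 ± 146), and only their overlap with smooth muscle and renin cells (197 ± 40.9) joined them to a neighbour. The 5 heavy chain genes together gave 35.7, 34.8 and 45.8 UMIs per UMI of B2m in podocytes. In endothelial cells there were 1.97, 1.82 and 2.07, in mononuclear phagocytes 1.53, 1.52 and 1.89, and in T and NK cells 2.12, 2.50 and 2.81. Among the other 9 classes the highest single value was 10.5, in female ERaKO intercalated cells, where 70.1% of H2-Q6 and 64.1% of H2-Q7 counts came from 1 cell. Counted over H2-D1 and H2-K1 alone, podocytes had 6.72, 6.64 and 7.77 UMIs per B2m UMI, close to the 5.34, 6.47 and 6.85 of principal cells.

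H2-Q6 and H2-Q7 made up most of the heavy chain UMIs of podocytes. H2-Q7 gave 52.8%, 51.8% and 49.8% and H2-Q6 26.9%, 27.2% and 31.3%, while H2-D1 gave 11.2%, 11.9% and 9.80% and H2-K1 7.64%, 7.22% and 7.17%. In endothelial cells H2-D1 led with 52.9%, 50.9% and 56.0%, and H2-Q7 gave 5.62%, 6.87% and 2.98%. H2-T23 was a small share of the podocyte total (1.49%, 1.89% and 1.99%) but 42.2% and 40.8% of that of female and female ERaKO proximal tubule cells, against 7.62% in male ones. Male proximal tubule cells lay almost all in cluster 14 (101 of 102), and those of the female library in clusters 17 and 19 (40 and 43 of 86), so the cells compared there differ in cluster.

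**Figure D2:**
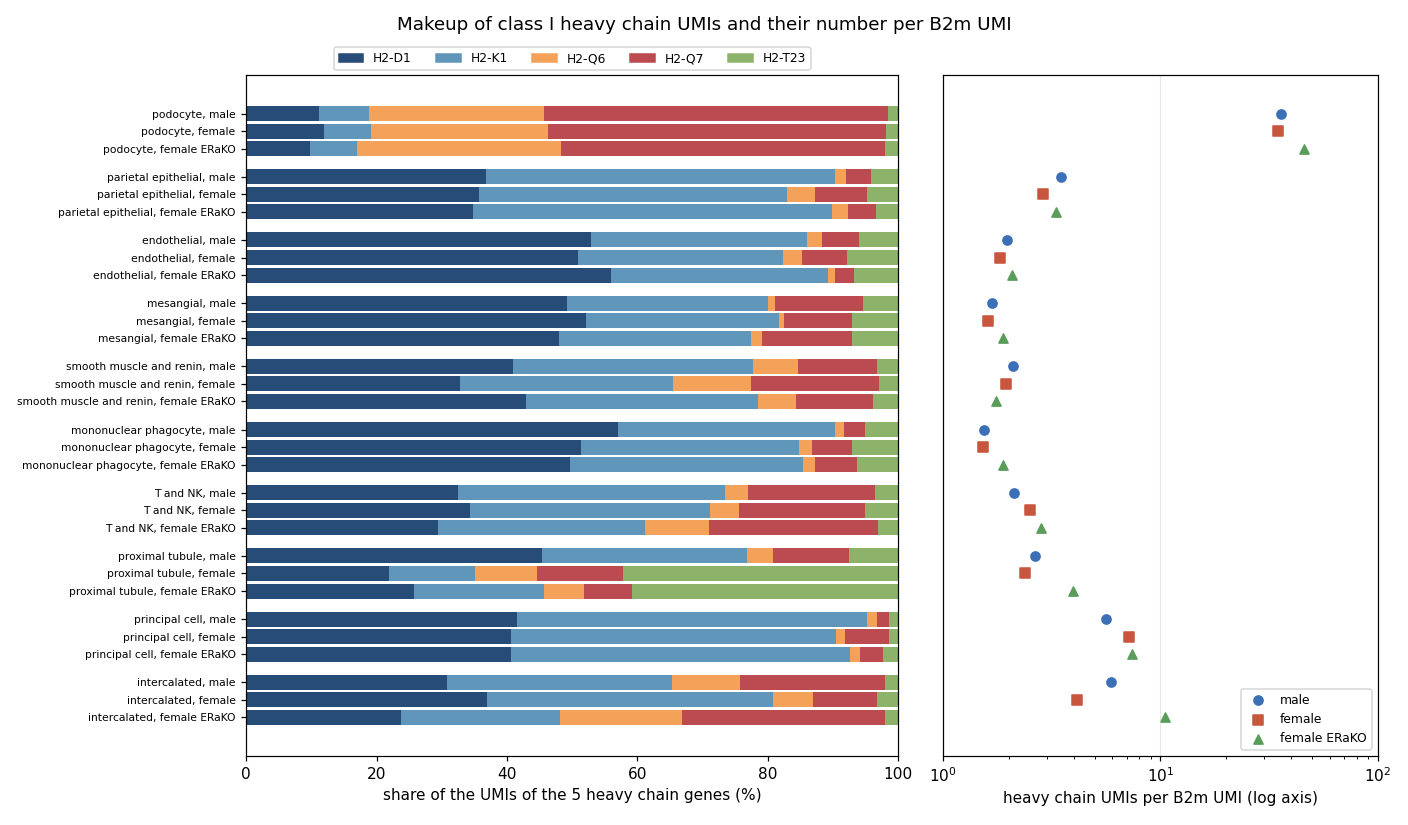
Left, the share of each gene in the UMIs of the 5 heavy chain genes, 1 bar per class and library. Right, heavy chain UMIs per B2m UMI (log axis), with 1 point per class and library: the 3 podocyte points lie between 34.8 and 45.8 and all others at or below 10.5.

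The peptide supply genes separated from each other. Psmb8 was low in podocytes, with 10.8, 15.5 and 6.82 CPM (11.1 ± 4.36), against 206, 239 and 191 in endothelial cells (212 ± 24.6), 511 ± 59.8 in mononuclear phagocytes and 354 ± 53.6 in T and NK cells. The podocyte values overlapped those of smooth muscle and renin cells (10.8 ± 2.25). Tap1 stood at 17.8, 21.6 and 14.6 CPM in podocytes (18.0 ± 3.49) and at 43.5 ± 6.44 in endothelial cells, 85.7 ± 8.82 in mononuclear phagocytes and 71.6 ± 8.0 in T and NK cells. Tapbp was nearly even, with 123, 130.3 and 135 CPM in podocytes (129 ± 6.07), 127 ± 5.37 in endothelial cells and 132 ± 17.0 in mononuclear phagocytes, whose ranges overlapped. T and NK cells had 70.8 ± 22.1 CPM of Tapbp. Nlrc5 was close to the limit of detection, with 18, 45 and 10 UMIs in all podocytes of a library (1.5, 2.52 and 1.24 CPM), and it gave 2 to 13 UMIs in mononuclear phagocytes and 2 to 4 in T and NK cells.

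Podocytes were then compared with endothelial and immune cells within mice, by edgeR's quasi-likelihood test on summed counts of 10 classes with the library as block. The 3 mice differ in sex and genotype, and their spread holds those differences. A gene was called at a Benjamini-Hochberg adjusted p under 0.05 over all 12873 genes tested. Against endothelial cells 2 of the 10 genes were higher in podocytes, where 30.5% of all genes were, and 6 were lower, where 31.3% were. H2-Q6 was 37.9-fold higher (log2 difference 5.25 ± 0.42, SE, adjusted p = 3.6e-12, edgeR) and H2-Q7 28.5-fold higher (4.83 ± 0.42, adjusted p = 2.3e-11, edgeR). Psmb8 was 17.5-fold lower (-4.13 ± 0.21, adjusted p = 1.7e-16, edgeR), B2m 6.75-fold lower (-2.75 ± 0.20) and Tap1 2.22-fold lower (-1.15 ± 0.15). H2-D1 was 1.67-fold lower (-0.74 ± 0.20, adjusted p = 0.0017, edgeR) and H2-K1 1.53-fold lower (-0.61 ± 0.20, adjusted p = 0.0087, edgeR), the latter with an adjusted p of 0.054 by edgeR without the female library. The lower call of Nlrc5 (adjusted p = 0.037, edgeR) was lost in 10 of 13 alternatives. H2-T23 (log2 -0.42 ± 0.22, adjusted p = 0.098, edgeR) passed in 5 of 13, and Tapbp (0.14 ± 0.18, adjusted p = 0.52, edgeR) in none.

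Against mononuclear phagocytes 2 genes were higher (30.8% of all genes) and 7 lower (26.8%). H2-Q6 was 30.6-fold higher and H2-Q7 18.0-fold higher (log2 4.93 ± 0.45 and 4.17 ± 0.42), and Psmb8 was 53.2-fold lower (-5.73 ± 0.23) and B2m 13-fold lower (-3.70 ± 0.21). Tap1 was 5.44-fold, H2-D1 2.66-fold, H2-K1 2.58-fold and H2-T23 1.90-fold lower, and Nlrc5 7.84-fold lower on few counts. Tapbp did not pass (log2 -0.28 ± 0.21, adjusted p = 0.26, edgeR), except in a fit of these 2 classes alone (adjusted p = 0.048, edgeR).

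Against T and NK cells 3 genes were higher (24% of all genes) and 6 lower (18.4%). H2-Q6 was 8.88-fold higher (log2 3.15 ± 0.42) and H2-Q7 4.06-fold higher (2.02 ± 0.38). Tapbp was 1.68-fold higher (0.75 ± 0.29, adjusted p = 0.036, edgeR), a call lost without the female library (adjusted p = 0.26), without the female ERaKO library (0.073), in a fit of these 2 classes alone (0.095) and by DESeq2 (0.15). Psmb8 was 36.2-fold, B2m 9.38-fold, Tap1 4.44-fold, H2-K1 3.0-fold and H2-D1 1.76-fold lower. Nlrc5 was 7.59-fold lower on 9 UMIs in all T and NK cells, and without the male library its adjusted p by edgeR was 0.076. H2-T23 did not pass (adjusted p = 0.26, edgeR).

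**Figure D3:**
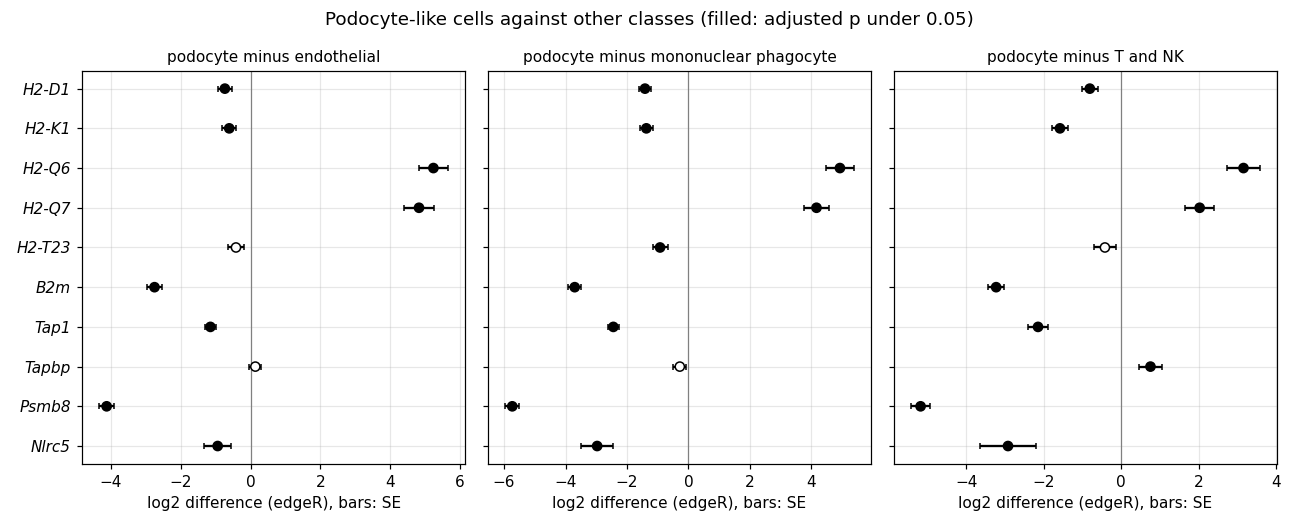
Log2 differences of podocytes from endothelial cells, mononuclear phagocytes and T and NK cells for the 10 genes. Bars are standard errors derived from edgeR's F statistic. Filled points passed the adjusted p threshold: H2-Q6 and H2-Q7 lie to the right of 0 in all 3 panels, and B2m, Psmb8 and Tap1 to the left.

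RNA carried over between droplets was gauged from markers. The 10 endothelial markers stood in podocytes at a median of 0.182%, 0.312% and 0.226% of their endothelial level (male, female, female ERaKO), and at most at 1.26%. B2m in podocytes was at 15.2%, 12.9% and 13.1% of its endothelial level and Psmb8 at 5.26%, 6.50% and 3.57%, all above those endothelial ranges. Phagocyte markers stood in podocytes at most at 2.39%, 1.72% and 4.86% of their phagocyte level. Psmb8 stood at 10.8, 15.5 and 6.82 CPM in podocytes against 494, 462 and 578 in phagocytes. That is within the phagocyte marker range in the male and female ERaKO libraries and above it in the female library. In podocytes without a UMI of any of 30 endothelial, phagocyte or T and NK markers (73.1% to 74.6% of podocytes), B2m stood at 203, 260.4 and 147 CPM and H2-Q7 at 3969.7, 5013 and 3478. In the other direction, podocyte markers stood in endothelial cells at a median of 1.5%, 1.86% and 1.25% of their podocyte level. The highest marker was at 27.1%, 30.5% and 28.3%. A marker that endothelial cells express themselves would widen this range, and that was not tested. H2-Q6 was at 3.11%, 4.35% and 1.09% and H2-Q7 at 3.87%, 5.39% and 2.06%, below the highest marker. H2-Q7 was above the marker median in each library, and H2-Q6 in the male and female but not in the female ERaKO library. The part of carry-over in the endothelial values was not tested. In T and NK cells the podocyte markers were at 1.17%, 5.86% and 14.6%, and H2-Q7 at 19.1%, 19.2% and 28.3%, above the highest marker in each library (1.95%, 7.79% and 20.6%). H2-Q6 was at 6.85%, 8.15% and 16.9% there, within the marker range in female ERaKO cells.

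Among the 4 podocyte clusters with at least 20 cells in every library, cluster 6 was highest or lowest in every library for 5 of the 10 genes. Cluster 6, led by Cst12, Igfbp6 and Pla2g7 with no podocyte marker among its top 10 genes, held 173, 189 and 120 cells. Its H2-Q7 level was 2837, 3101 and 1869 CPM, against 4321, 5406 and 3573 in cluster 0, and its H2-Q6 level 1205, 1379 and 852 against 2087, 2802 and 2355. H2-T23 went the other way, with 159, 266 and 234 CPM in cluster 6 and 106, 166 and 113 in cluster 0. B2m was also highest in cluster 6 in each library, with 282, 289.5 and 217 CPM against at most 231, 277 and 145 in the other clusters. H2-D1 was lowest there, with 755, 962 and 540.4 CPM against at least 809, 1065 and 661. No test was run on clusters. Clusters 0, 1 and 4 had 3573 to 5406 CPM of H2-Q7 over the libraries. Leaving out cluster 6 gave podocyte means with the same calls but for H2-T23 (adjusted p = 0.039, edgeR) and Nlrc5 (0.073) against endothelial cells.

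**Figure D4:**
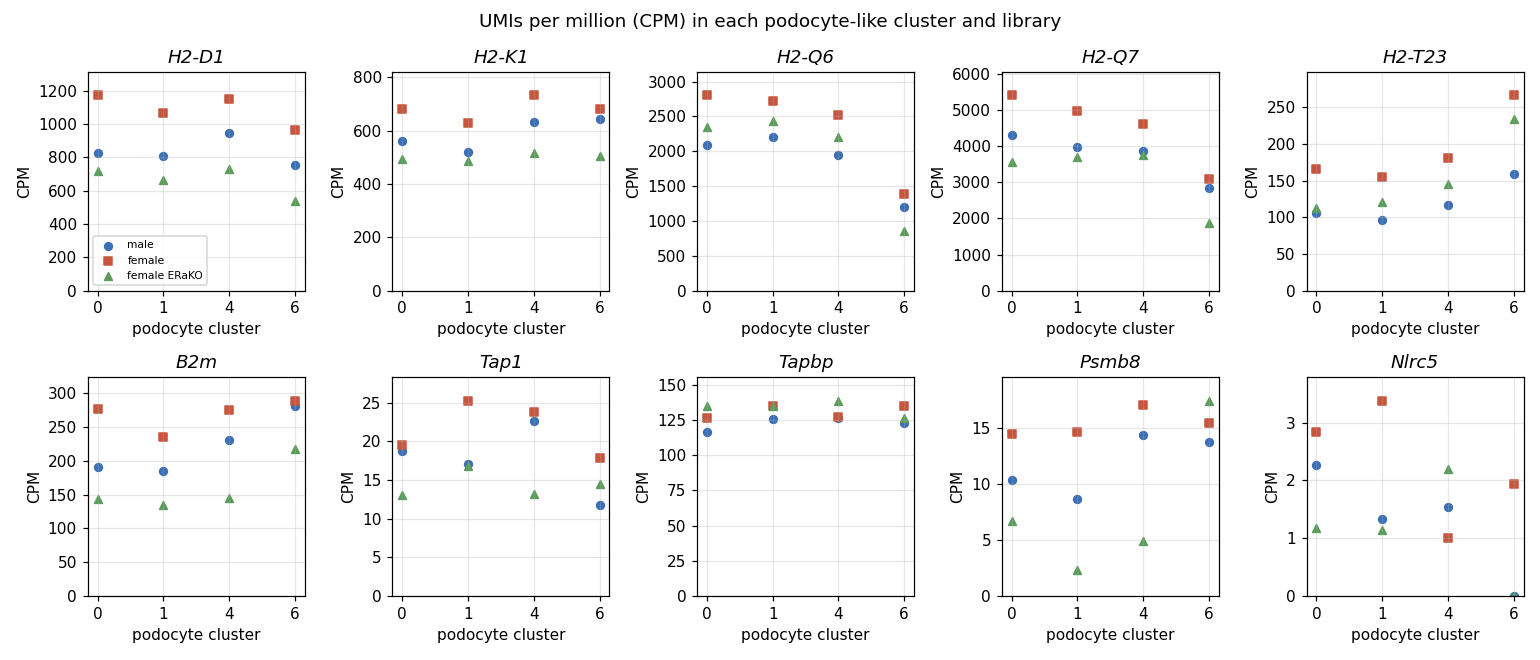
Level of each gene in counts per 1000000 UMIs (CPM) in podocyte clusters 0, 1, 4 and 6, 1 point per library. In cluster 6 the H2-Q7 points lie between 1869 and 3101 CPM and those of the other clusters at or above 3573, while H2-T23 points are highest in cluster 6 within each library.

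The male and the female ERaKO library were each compared with the same female library, so both comparisons share it. With 1 mouse per group there is no test, every interval covers counting error only, and sex, genotype and the single animal or preparation cannot be told apart. Of the barcodes, 21%, 17.7% and 34% (male, female, female ERaKO) were removed for over 25% mitochondrial UMIs, a share that also differs between libraries, and its part in the values was not tested. A gene was called at 1.5-fold or more with a 95% interval that excludes equality. Ratios were taken after adding 1 CPM to each side and intervals without it, which matters for low genes such as Nlrc5. In podocytes the female library had the highest value of 9 of the 10 genes, all but Tapbp. In male podocytes 1 gene was called lower, where 1.66% of 11937 genes were: H2-T23, at 111 against 177 CPM (log2 -0.67, interval -0.77 to -0.59). The median log2 ratio of the 10 genes was -0.37, beside 0.02 over all genes. In female ERaKO podocytes 4 genes were called lower, where 2.95% of 11777 genes were. B2m stood at 152 against 269.8 CPM (-0.83, -0.92 to -0.74), H2-D1 at 679.7 against 1113 (-0.71, -0.76 to -0.67) and Psmb8 at 6.82 against 15.5 (-1.08, -1.63 to -0.77). Nlrc5 was called on 10 against 45 UMIs (-0.65, -2.18 to -0.02). H2-Q7 was 1.41-fold lower and H2-Q6 1.18-fold lower, and Tapbp was level (0.05, -0.06 to 0.15). The median of the 10 genes was -0.51.

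Endothelial cells showed the same order of libraries for most of the genes, with the female library highest for 9 of 10. In male endothelial cells 5 genes were called lower (2.68% of 11823 genes): H2-T23 at 164 against 301 CPM (log2 -0.87), Nlrc5 on 19 against 47 UMIs (-0.97), H2-Q6 (-0.83), H2-Q7 (-0.79) and B2m at 1367 against 2092 CPM (-0.61). In female ERaKO endothelial cells 6 were called lower (3.78% of 11642): H2-Q6 at 23.7 against 111 CPM (-2.19), H2-Q7 at 71.2 against 262 (-1.87), Nlrc5 (-1.55), H2-T23 at 161 against 301 (-0.90), B2m at 1153 against 2092 (-0.86) and H2-K1 at 795 against 1201 (-0.59). In endothelial clusters 2, 3, 10 and 16, H2-Q6 stood at 116, 103, 91.8 and 243 CPM in female cells. In female ERaKO cells it stood at 27.7, 13.0, 45.2 and 59.6 CPM. Cluster 2 held 366 of 688 female and 174 of 479 female ERaKO endothelial cells, so the makeup of the class differs too. The podocyte marker sum of endothelial cells was 1617, 1594 and 1390 CPM (male, female, female ERaKO). The median podocyte marker was at 1.5%, 1.86% and 1.25% of its podocyte level, in the same order of libraries as H2-Q6 and H2-Q7. The part of these markers in the H2-Q6 and H2-Q7 values was not tested. Erythroid markers summed to 1035, 1207 and 33.1 CPM in these cells and smooth muscle and renin markers to 261, 470.3 and 888, so both also differ in the female ERaKO library, and their part was not tested. Keeping called doublets gave -1.70 and -1.47 for H2-Q6 and H2-Q7 in the female ERaKO library. The cells were clustered anew there, and endothelial-scoring clusters of 128 and 32 cells stayed unnamed. The doublets and the makeup of the class thus changed together. Tapbp differed little in either comparison (0.07 and 0.12). Among mononuclear phagocytes, male cells had H2-Q6, H2-Q7 and H2-T23 called lower (10.4% of 6300 genes), and female ERaKO cells none of the 9 genes measured (6.77% of 5964). Parietal epithelial cells of the male library had 5 genes called lower (3.18% of 10494), among them B2m at 377 against 665 CPM (-0.82), and those of the female ERaKO library 2, H2-Q6 and H2-Q7 (4.53% of 11296). The podocyte marker sum of parietal epithelial cells was 498, 1001 and 580.5 CPM (male, female, female ERaKO), in the same order as H2-Q6 (21.8, 81.6 and 45.5) and H2-Q7 (49.4, 152 and 79.2), and its part was not tested. Mesangial cells, of which the female library had only 43, had 5 lower genes in each comparison (2.89% of 8201 genes for the male and 2.95% of 8203 for the female ERaKO library), with B2m at 756, 1393 and 681 CPM.

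In the remaining classes few counts stood behind the calls, and in several of them 1 cell gave a large share. Male T and NK cells had H2-T23 called lower on 31 against 81 UMIs (12.0% of 3318 genes). Female ERaKO T and NK cells had H2-D1 and H2-T23 lower (4.37% of 3500) and H2-Q6 higher (10.3%), the last with 42.4% of its UMIs in 1 cell. From the female to the female ERaKO T and NK cells, podocyte markers went from 1280.1 to 3761 CPM, smooth muscle and renin markers from 806 to 4465 and mesangial markers from 386 to 1997, beside 5298 and 5076 for the markers of the class itself, and their part was not tested. Smooth muscle and renin cells had H2-Q6 and H2-Q7 lower in the male (3.73% of 9537) and the female ERaKO library (6.99% of 9438), with 51.4% of the female H2-Q6 UMIs in 1 cell. Intercalated cells had H2-Q6 and H2-Q7 higher in the male (4.28% of 9401) and the female ERaKO library (4.50% of 8473), and Tapbp lower in both (7.04% and 7.42%), with B2m lower too in the latter. The podocyte marker sum of intercalated cells was 1179, 371 and 2178 CPM (male, female, female ERaKO), in the same order as H2-Q6 (60.6, 29.1 and 136) and H2-Q7 (128, 46.2 and 226), and its part was not tested. Principal cells had H2-Q7 lower in both (3.24% of 7932 and 2.81% of 7268), with 60.6% of the female UMIs in 1 cell, and Tap1 higher in the male library (2.82%). Male proximal tubule cells had H2-D1 and H2-K1 higher (15.5% of 8634) and H2-Q6 and H2-T23 lower (8.59%), between libraries whose cells lie in different clusters. Female ERaKO ones had Tapbp higher (5.42% of 9435) and H2-Q6, H2-Q7 and B2m lower (6.61%). Their makeup differs too, as clusters 14, 17 and 19 held 37, 86 and 54 female ERaKO cells and 3, 40 and 43 female cells.

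**Figure D5:**
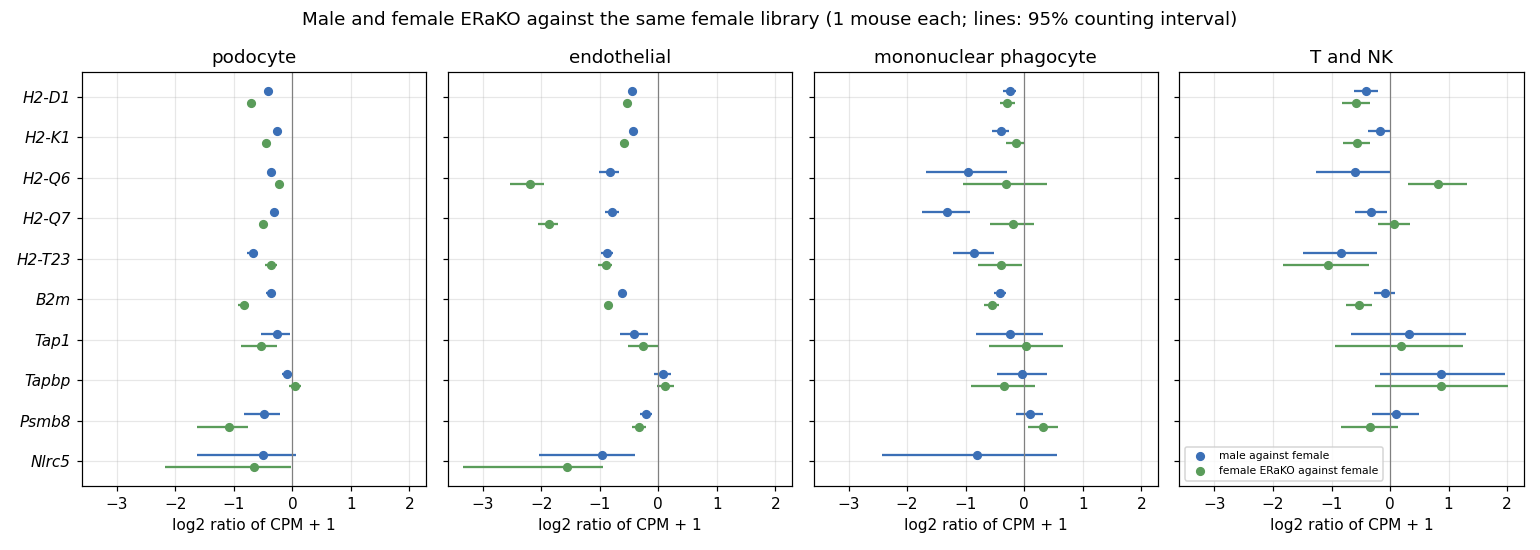
Log2 ratios of CPM + 1 for the male (blue) and female ERaKO (green) library against the same female library in 4 classes, with 95% counting intervals as lines and 1 mouse per library. The intervals are those of the ratio without the added 1 CPM. In podocytes all male ratios and 9 of 10 female ERaKO ratios lie below 0, and the lowest endothelial ratios are those of H2-Q6 and H2-Q7 in the female ERaKO library.

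Other genes of the pathway were taken from lists that are not part of the 10. Of the 11 genes for peptide supply and loading, 3 were higher and 5 lower in podocytes than in endothelial cells. Over all genes tested 30.5% were higher and 31.3% lower, the shares beside which these and the following list counts stand. The immunoproteasome subunits Psmb9 and Psmb10 were 4.33-fold and 4.54-fold lower, like Psmb8, whereas the chaperones Hspa5, Calr and Canx, which assist the folding of many proteins, were 1.89-fold, 1.64-fold and 1.34-fold higher. Of 7 constitutive proteasome genes 5 were higher and none lower, among them Psmb5 (1.85-fold), the subunit that Psmb8 replaces in the immunoproteasome. Of 13 other class I heavy chain genes 6 could be tested, of which 2 were higher and 4 lower. H2-T22 was 1.59-fold, H2-Q4 1.88-fold and H2-M3 2.65-fold lower, and H2-Q10 1.64-fold higher at 11.2, 16.4 and 11.2 CPM in podocytes. Of 15 regulators 10 were lower and none higher, with Irf1, an interferon-induced activator of class I genes, 4.29-fold lower. The interferon receptor chains differed, with Ifngr1 4.62-fold higher and Ifnar1 and Ifnar2 2.14-fold and 2.43-fold lower. Of 19 interferon-stimulated genes 16 were lower and none higher (median log2 -2.73, beside -0.02 over all genes), such as Bst2 (20.8-fold). Of 8 class II genes 6 were lower and 1 higher, H2-DMb1, a chain of a class II loading factor (42.0-fold).

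Between libraries, 8 of 18 measured interferon-stimulated genes were called lower in female ERaKO podocytes (2.95% of all genes) and 4 in male podocytes (1.66%). Irgm2, an interferon-induced GTPase, stood at 17.4, 26.9 and 12.7 CPM (male, female, female ERaKO) and Irgm1 at 8.67, 16.9 and 9.18. Psmb9 stood at 19.5, 32.9 and 16.5 CPM, lowest in the female ERaKO library. Psme1 and Psme2, which encode a proteasome activator, stood at 141, 166 and 147 and at 117, 128 and 145 CPM. In the same cells 3 of 14 immediate early genes were called higher in the male (1.86% of all genes) and 5 in the female ERaKO library (3.42%), with Atf3 at 174, 80.8 and 130.3 CPM. Haemoglobin and other erythroid markers summed to 708, 9.71 and 578 CPM in podocytes. These 2 measures move with the library too, and their part in the class I values was not tested.

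Across the 30 class and library sums, Pearson correlations of log2(CPM + 1) were high among H2-D1, H2-K1, B2m, Tap1 and Psmb8, from 0.82 (H2-K1 and B2m) to 0.95 (H2-D1 and H2-K1). H2-Q6 and H2-Q7 gave 0.92 with each other and 0.09 (H2-Q6 and Psmb8) to 0.61 (H2-Q7 and H2-D1) with those 5 genes. A search for genes like the mean of the 10 took only genes with at least 20 counts in every class, summed over libraries. Tap1, Psmb8 and Nlrc5 themselves fall short of that, with 9, 10 and 0 counts in proximal tubule cells. Of the 3719 genes compared, Bcl10 (0.93), Psme2 (0.93), Ifngr1 (0.91), Tpm3 (0.91), Samhd1 (0.89), Arpc5 (0.89), Psme1 (0.88), Zc3hav1 (0.88), Hnrnpf (0.88) and Cntrl (0.87) were most like that mean. These sums share libraries and cell classes and are not independent, so the values only describe them.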

How the data were processed

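The authors deposited raw UMI counts per gene and cell for 3 libraries, without normalisation. The counts came from Cell Ranger 6.1.2 with mm10, and STAR 2.7.5a is listed as well, per the submitters' processing notes. Parameters and cell filter are not given in the sources used here. The genes, lists and comparisons were chosen with earlier results of these data known. Cells under 500 genes or over 25% mitochondrial UMIs were removed, and Scrublet doublets in scanpy 1.11.5 were removed (112, 53 and 142 cells). Leiden clustering (leidenalg 0.10.2, resolution 1, 15 neighbours, 30 components of 2000 variable genes) gave 27 clusters, named from 16 marker lists. The minima for naming, including at least 3 T and NK markers per cell for that class, were set after the clusters were seen. Unnamed cells and the thick limb class (8 female cells) were left out. Counts were summed per class and library. CPM are counts per 1000000 summed UMIs. Classes were compared with edgeR 4.0.16 in R 4.3.3 (TMM, filterByExpr, library as block), with DESeq2 1.42.0 as alternative, after a check on simulated data. edgeR gives no standard error here, so SE is the absolute log2 difference divided by the square root of its F statistic. Libraries were compared by log2 ratios with a pseudocount of 1 CPM and exact Poisson intervals of the ratio without it, for genes with at least 20 summed counts. Class sums rested on 180274 to 17824541 UMIs. Intervals cover counting error only. All 10 genes are named, and from each other list the 4 with most counts in podocytes and endothelial cells or those called in podocytes, while Psmb10, Psme1 and Psme2 were added after their values were seen. A gene that this rule names is not reported here. Other settings were another normalisation, filter, resolution, mitochondrial limit, doublets kept, podocytes without carry-over markers, no block, libraries left out and, chosen after seeing the data, podocytes without cluster 6.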

Additional observations from a re-analysis of the deposited data

Results flagged for a closer look

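Several genes were called higher in one class and lower in another under the same library comparison. Each comparison has 1 mouse per side, so the difference between classes was not tested. The values are log2 ratios of CPM + 1 against the female library.

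In the male library, H2-D1 was lower in mesangial cells (-0.91) and higher in proximal tubule cells (0.90), and H2-K1 likewise (-0.76 and 1.10). Male and female proximal tubule cells lie in different clusters. H2-Q6 was higher in male intercalated cells (1.03) and lower in endothelial cells (-0.83), mononuclear phagocytes (-0.96), parietal epithelial cells (-1.86), proximal tubule cells (-1.30) and smooth muscle and renin cells (-1.18). H2-Q7 was higher in male intercalated cells (1.45) and lower in endothelial cells (-0.79), mononuclear phagocytes (-1.32), parietal epithelial cells (-1.61), principal cells (-1.78) and smooth muscle and renin cells (-1.08).

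In the female ERaKO library, H2-Q6 was higher in intercalated cells (2.19) and T and NK cells (0.81). It was lower in endothelial cells (-2.19), parietal epithelial cells (-0.83), proximal tubule cells (-0.77) and smooth muscle and renin cells (-1.58). H2-Q7 was higher in intercalated cells (2.27) and lower in endothelial cells (-1.87), parietal epithelial cells (-0.93), principal cells (-0.95), proximal tubule cells (-0.97) and smooth muscle and renin cells (-1.31). Tapbp was lower in intercalated cells (-0.61) and mesangial cells (-1.21) and higher in proximal tubule cells (0.90). The makeup of the proximal tubule class by cluster differs between the female and female ERaKO libraries. In intercalated cells 1 cell gave 26.6%, 41.0% and 70.1% of H2-Q6 UMIs (male, female, female ERaKO), and in parietal epithelial cells of the female library 1 cell gave 47.1%. The podocyte marker sums of the same libraries were 1179, 371 and 2178 CPM in intercalated cells, 498, 1001 and 580.5 in parietal epithelial cells, 278, 1280.1 and 3761 in T and NK cells, 1617, 1594 and 1390 in endothelial cells and 759, 1055 and 1080.0 in mononuclear phagocytes. In intercalated, parietal epithelial and T and NK cells they stood in the same order of libraries as H2-Q6 and H2-Q7. In endothelial cells the sums did not, but the median podocyte marker did. It was at 1.5%, 1.86% and 1.25% of its podocyte level (male, female, female ERaKO). The part of these markers in the values was not tested. In endothelial cells no cell gave more than 7.5% of H2-Q6 UMIs.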

How the results depend on the processing

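Under the alternatives run, no call changed direction and no count of called genes among the 10 moved by over 1.5 times. Against endothelial cells 2 genes stayed higher and 4 to 7 were lower, against mononuclear phagocytes 2 were higher and 7 to 8 lower, and against T and NK cells 2 to 3 were higher and 5 to 7 lower. Without the replicate block, the only call of the 10 genes that changed was Nlrc5 against endothelial cells (adjusted p = 0.071, edgeR). Its adjusted p ranged from 0.0095 to 0.38, and without the male, female or female ERaKO library it was 0.11, 0.38 and 0.058. H2-T23 against endothelial cells passed with total counts (0.022), no filter on low counts (0.039), a fit of the 2 classes alone (0.0038) and without cluster 6 (0.039), an alternative chosen after seeing the data. With at most 10% mitochondrial UMIs it passed too (0.00039), but there the cells were clustered anew and endothelial-scoring clusters of 822 and 633 cells stayed unnamed, so the endothelial class held only clusters of 320 and 115 cells and the limit and the makeup of the class changed together. In that setting H2-T23 also passed against T and NK cells (0.034). The cause was not tested. Between libraries, male podocytes kept 1 lower gene and female ERaKO podocytes 3 to 4, male endothelial cells 4 to 5 and female ERaKO ones 4 to 6. Ratios of single genes in these 2 classes were marked as moved 14 times for the female ERaKO and 10 times for the male library. They were marked the same 163 and 167 times. In female ERaKO podocytes the H2-Q7 ratio moved in 4 of 10 alternatives and the H2-Q6 ratio in 2 of 10. Nlrc5 had 73 UMIs in all podocytes, and its lower call against mononuclear phagocytes held in 13 of 13 alternatives.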
